A study of Mus musculus with 50 samples.

Results

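Mitochondrial ribosomal protein genes were taken as all rows of the deposited table whose gene symbol is Mrpl or Mrps followed by a number and at most 1 further letter, with a mean of at least 0.5 RPKM (reads per kilobase of gene length, scaled to library size) over the 50 tumors. Of 76 such symbols 75 passed, 46 starting with Mrpl (large subunit) and 29 with Mrps (small subunit), out of 16733 genes at that level and 37701 in the table. The choice used the symbol and the overall level and no difference between groups. The member with the lowest mean was Mrpl35, at 4.56 RPKM. The only symbol outside it was Mrpl53, with a mean of 0.024 RPKM and a value above 0 in 19 of 50 tumors.

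The tumors came from p53R270H/+WAPCre mice, in which Cre under the Wap promoter switches on 1 mutant p53 allele in mammary epithelium, so all groups carried the mutation and no normal gland was included. Female mice, 8 weeks old at the start, were injected subcutaneously every other day with vehicle (labelled untreated in the sample titles), insulin, glargine, X10 or IGF1 until a tumor formed. Glargine and X10 are analogues of insulin. IGF1 is the natural ligand of the IGF1 receptor, for which X10 also has a raised affinity. By the paper, glargine binds this receptor more strongly too, but in vivo is soon broken down to products of lower affinity. There were 10 tumors per group, each named here by its label (Untreated_195 is a vehicle tumor), taken at 1 cm3 and 24 h after the last injection. The study chose tumors close to the median latency of their group that were EMT-like (epithelial to mesenchymal transition). The paper reports a significantly shorter latency with X10 and IGF1. Age at sampling and length of treatment therefore cannot be told apart from the compound. Library sizes recovered from the steps of the RPKM values ran from 26.6 to 51.9 M reads, and the 73 members whose reads could be recovered had on average 372 to 5396 reads per tumor. The sequence sample IDs in the labels run in the order of the groups, and the labels name no batch.

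The labelled tissue held both epithelial and mesenchymal RNA. All 6 mesenchymal and fibroblast markers were detected in every tumor, with summed levels of 3724 to 32104 RPKM, whereas the 8 epithelial markers summed to between 12.2 and 6196 RPKM, and Krt5 was at 0 in at least 1 glargine and 1 IGF1 tumor. The 9 skeletal muscle markers ranged from 6.58 to 6574 RPKM. These are bulk samples, in which fewer cells of a type and less RNA per cell cannot be told apart.

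Mitochondria keep their own ribosome, which translates only the few respiratory chain proteins that mitochondrial DNA still encodes. Its RNAs come from mitochondrial DNA, but every protein of it is encoded in the nucleus, made in the cytosol and imported. Many of these proteins have a homologue in the bacterial ribosome and the others arose after the ancestor of mitochondria was taken up. The symbols do not always match the place: the products of Mrps30 and Mrps18a sit in the large subunit, and the product of Mrps36 is now assigned to the oxoglutarate dehydrogenase complex.

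The members are spread over the genome. In GENCODE M21 (GRCm38), 74 of the 75 were found, all protein coding and on 17 chromosomes, with up to 10 on chromosome 11. RefSeq promoter windows of 300 bases (250 before to 50 after the start, GRCm38.p6) were at hand for 66 members, and 5 motifs were searched as exact letters on either strand. CCGGAAGT, a site of ETS factors such as GABPA, was in 12 of 66 members (16.7% of the members' windows against 3.89% of all 32851). CGCATGCG, the core of the NRF1 site, was in 7 of 66 (9.72% against 1.87%). AAGATGGCG, a YY1 site, was in 8 of 66 (11.1% against 1.40%), and 6 of its 8 matches lay after the start. The GC box GGGCGG of SP1 was in 33 of 66 (52.8% against 35.7%), and the E-box CACGTG in 5 of 66 (9.72% against 7.15%). Overlapping windows of Mrpl2 held the same E-box and GC boxes and were each counted, and by gene the E-box share was 7.58%. Of the windows of cytosolic ribosomal protein genes 16.7% held the ETS letters and 4.55% the NRF1 core, and of those of nuclear respiratory chain genes 7.81% and 14.1%. The YY1 letters were in 7.58% of the cytosolic ribosomal and 10.9% of the respiratory chain windows. For the GC box these shares were 60.6% and 35.9%, and for the E-box 12.1% and 9.38%. The lists were compared by these shares alone, and a match is not a bound site.

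Stretches before the start are shown for 6 members, as examples of the motifs and of the patterns described below, with the searched motifs in capitals and only bases outside all GENCODE exons. They are Mrpl22 and Mrpl9, each with the NRF1 core, Mrps22, with the ETS site and in the most strongly correlated pair, Mrps17, most like the other members across tumors, Mrps2, among those least like them and with none of the 5 motifs, and Mrps6, the only member with an adjusted p under 0.05 in any comparison of groups, with 4 GC boxes of which 2 overlap. Their positions in GRCm38.p6 are chr11:58171541-58171660 (plus strand) for Mrpl22, chr3:94443198-94443317 (plus) for Mrpl9, chr9:98601680-98601799 (minus) for Mrps22, chr5:129715377-129715496 (plus) for Mrps17, chr2:28467946-28468065 (plus) for Mrps2 and chr16:92058150-92058269 (plus) for Mrps6, and each is written 5′ to 3′ along its gene.
Mrpl22: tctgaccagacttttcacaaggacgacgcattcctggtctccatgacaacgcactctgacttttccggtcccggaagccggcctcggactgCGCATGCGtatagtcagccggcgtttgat
Mrpl9: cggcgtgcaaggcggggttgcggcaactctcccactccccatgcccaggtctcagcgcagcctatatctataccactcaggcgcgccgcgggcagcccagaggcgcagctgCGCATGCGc
Mrps22: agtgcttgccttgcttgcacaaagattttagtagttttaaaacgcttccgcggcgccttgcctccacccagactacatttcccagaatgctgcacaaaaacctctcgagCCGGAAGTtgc
Mrps17: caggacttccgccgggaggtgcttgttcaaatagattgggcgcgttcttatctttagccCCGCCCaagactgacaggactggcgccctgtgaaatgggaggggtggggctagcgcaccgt
Mrps2: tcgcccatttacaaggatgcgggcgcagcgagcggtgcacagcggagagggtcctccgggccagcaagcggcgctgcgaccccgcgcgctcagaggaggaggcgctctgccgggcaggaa
Mrps6: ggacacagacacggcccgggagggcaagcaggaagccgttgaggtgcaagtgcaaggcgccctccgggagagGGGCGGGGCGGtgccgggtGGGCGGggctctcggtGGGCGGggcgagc

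All 75 members were expressed in all 50 tumors, the lowest single value being 2.58 RPKM (Mrpl35). Their median level was 31.2 RPKM, against 10.2 RPKM over all genes tested, and 69 of 75 lay above that median. It was 32.2 RPKM for large subunit and 31.2 RPKM for small subunit symbols. The 45 members with a bacterial homologue had a median of 34.0 RPKM and the other 30 one of 26.0 RPKM. For comparison, the median was 48.5 RPKM for 7 mitoribosomal proteins with other symbols, 99.0 RPKM for 71 nuclear respiratory chain genes and 428 RPKM for 76 cytosolic ribosomal protein genes.

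Although 1 copy of most proteins goes into each ribosome, mean levels spread over 34.9-fold. Mrpl28 was highest, with 109 RPKM in its lowest, 149 in its median and 293 in its highest tumor. Mrpl33 ranged from 43.9 to 167 RPKM around a median of 89.4, and Mrpl13 from 64.2 to 140 around 92.9. At the other end Mrpl35 ranged from 2.58 to 8.58 RPKM (median 4.09), Mrpl1, which in bacteria builds the stalk beside the exit site, from 3.56 to 8.39 (median 5.25), and Mrpl47 from 3.90 to 13.4 (median 7.47). The ranges of these 2 sets of 3 genes did not overlap. RPKM divides by a gene length that the deposited table does not show. The lengths recovered from the value steps were 506 bases for Mrpl28 and 3715 bases for Mrpl35, within 412 to 3715 bases for the 73 members where it could be done. The part of these lengths in the spread of levels was not tested. Members with near-identical pseudogenes in the annotation, such as Mrpl23, Mrpl48 and Mrps36, may share reads with them, so their levels are less certain.

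**Figure D1:**
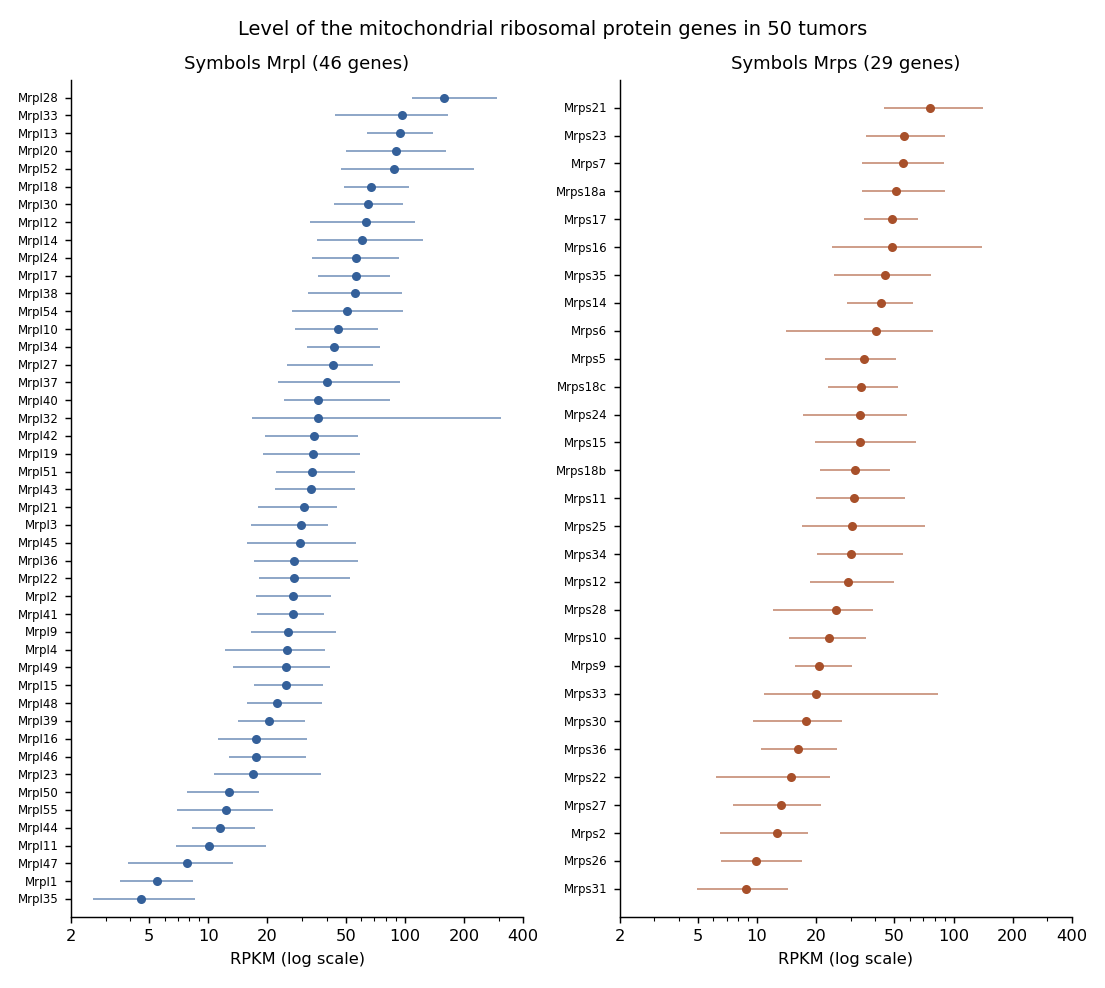
RPKM of each of the 75 genes on a log scale, the 46 Mrpl symbols in the left panel and the 29 Mrps symbols in the right, sorted by the mean. Points are means over 50 tumors and lines run from the lowest to the highest tumor: the means run from 4.56 RPKM (Mrpl35) to 159 RPKM (Mrpl28), and the long line of Mrpl32 ends in 1 tumor at 310 RPKM.

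Levels varied little between tumors. The SD of log2(RPKM + 0.5) over 50 tumors had a median of 0.31 over the members, against 0.42 over all tested genes and 0.39 over the 10393 genes within the members' range of levels, and 70 of 75 members lay below the median of all genes. Mrps9 was steadiest, with an SD of 0.19 (15.6 to 30.6 RPKM, median 20.0), followed by Mrpl18 with 0.22 (48.9 to 105.2 RPKM, median 66.0) and Mrps5 with 0.23 (22.3 to 51.1 RPKM, median 34.1). The highest SDs were those of Mrpl32 (0.58), Mrps6 (0.55) and Mrps33 (0.45).

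For Mrpl32 and Mrps33 a single tumor made the difference. Mrpl32, whose product is trimmed by the m-AAA protease before it joins the ribosome, stood at 310 RPKM in tumor IGF1_136 and between 16.7 and 46.7 RPKM in all others, with a median of 29.6 RPKM. The SD of Mrpl32 without that tumor was 0.34. Its neighbours on chromosome 13 were high in the same tumor: Psma2, a proteasome subunit whose gene starts 0.075 kb away, stood at 1043 RPKM against a median of 94.5 and a highest value of 145.5 in the others, and AW209491, 17.0 kb away, at 51.1 RPKM against a median of 5.28. These are 10.5-, 11.0- and 9.68-fold the medians for Mrpl32, Psma2 and AW209491. Within 3 Mb, 6 of 21 protein coding genes were above all other tumors in tumor IGF1_136, where this held for 0.669% of all genes tested, and the other 3 were the prolactin family genes Prl2c2, Prl2c3 and Prl2c5, near-identical copies that can share reads.

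Mrps33 stood at 83.5 RPKM in tumor glargine_62 and between 10.9 and 28.7 RPKM in the others (median 18.4). Without this tumor its SD was 0.33. Here 18 of 41 protein coding genes within 3 Mb were above all other tumors, against 1.12% of all genes, and all 18 lay at Mrps33 or on one side of it. They included Braf, the kinase of the MAPK pathway, at 48.9 RPKM against a median of 12.1 (4.04-fold), Ndufb2, a subunit of respiratory complex I, at 47.1 against 16.8 (2.80-fold), and Dennd2a at 116.1 against 16.5 (7.02-fold). On the other side the nearest genes, Agk (0.851-fold) and Ssbp1 (0.878-fold), were near their medians. Mrps33 itself was 4.53-fold its median. A search over all 75 members for a tumor at least 1.5-fold above the next found 1 further case, Mrps25 in tumor Untreated_195 (71.2 RPKM against at most 42.0), where 6 of 30 protein coding genes within 3 Mb, itself included, were above all other tumors and 3.23% of all genes were. These 3 genes were followed up after their values were seen, and DNA copy number was not measured.

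**Figure D2:**
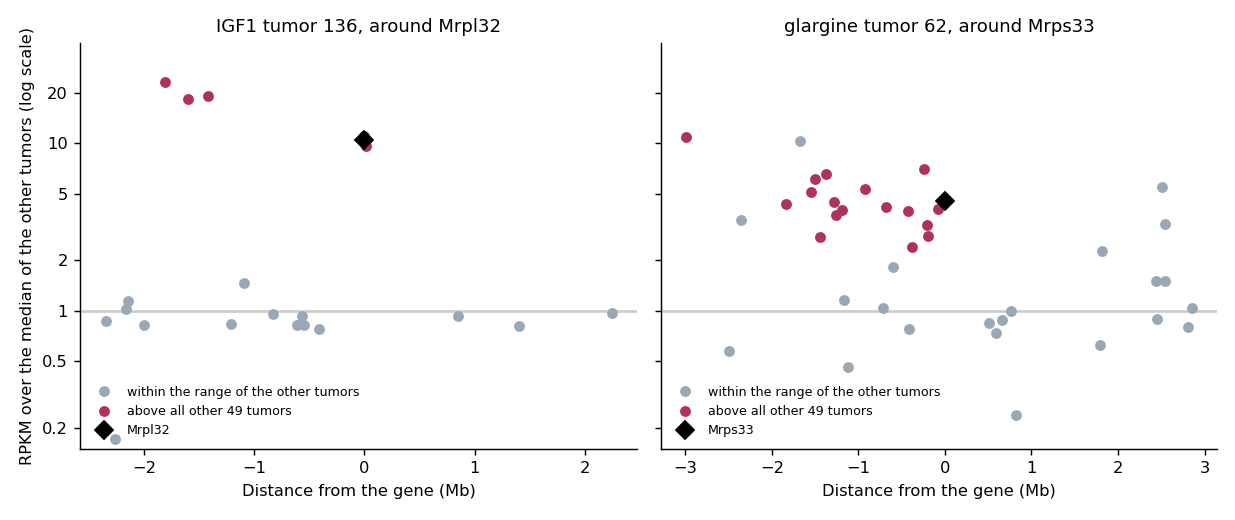
Protein coding genes within 3 Mb of Mrpl32 in tumor IGF1_136 (left) and of Mrps33 in tumor glargine_62 (right): RPKM in that tumor over the median of the other 49 tumors, on a log scale, against the distance in Mb along the chromosome. Red points lie above all other tumors and the diamond is the member. Red points crowd on the left of Mrps33 and none lies to its right, and a gene at 0 is not drawn.

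The members varied together across tumors. Over 2775 pairs the mean Pearson correlation of log2(RPKM + 0.5) across the 50 tumors was 0.316, and 91.9% of pairs were above 0, where the mean over all pairs of tested genes was 0.026. It was 0.324 within the large subunit, 0.296 within the small and 0.317 between them, so that the correlation did not follow the subunit. After subtraction of the group means it was 0.292, and within single groups it ran from 0.190 (vehicle) to 0.381 (IGF1). The 76 cytosolic ribosomal protein genes had a mean of 0.621 and the 71 nuclear respiratory chain genes one of 0.368. All these points share the library and its composition.

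Mrps17 followed the mean z-score of the other members most closely (r = 0.842), then Mrps26 (0.810) and Mrps25 (0.771), all of the small subunit. In 56 of 75 members this correlation was above 0.5. Mrps31 (-0.083) and Mrps2 (-0.020) were below 0, and Mrpl39 was next with 0.147. Mrps2 correlated at -0.51 with Mrpl54 and at -0.47 with Mrpl52. The most strongly correlated pair was Mrpl3 and Mrps22, both on chromosome 9 (r = 0.867), ahead of Mrpl19 and Mrpl35, both on chromosome 6 (0.856). Mrpl46 and Mrps11, which lie next to each other on opposite strands with overlapping exons, correlated at 0.826. Each of the strongest pairs, down to Mrpl19 and Mrps25 at 0.780, had both members on the same chromosome. The part of shared position in these correlations was not tested. Of the 3 related proteins, of which only those of Mrps18b and Mrps18c sit in the small subunit, Mrps18a and Mrps18b correlated at 0.728, Mrps18a and Mrps18c at 0.392 and Mrps18b and Mrps18c at 0.272. Mrps18a and Mrps18b both lie on chromosome 17 and Mrps18c on chromosome 5. Mrps18a and Mrps30, whose products both sit in the large subunit, correlated at 0.425.

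The mean z-score of the members over 50 tumors correlated at 0.881 with that of the mitoribosomal proteins with other symbols (such as Dap3), at 0.868 with nuclear respiratory chain genes, at 0.820 with assembly and rRNA modification factors, at 0.736 with cytosolic ribosomal proteins and at 0.5997 with mitochondrial translation factors. With the 13 respiratory chain genes of mitochondrial DNA, the messages this ribosome translates, it was -0.161, or -0.042 without the 2 tumors farthest from the median, and within groups it ran from -0.648 (glargine) to 0.111 (vehicle). Within groups the others ran from 0.620 to 0.986 for the proteins with other symbols, from 0.745 to 0.935 for respiratory chain genes, from 0.532 to 0.872 for assembly factors, from 0.671 to 0.816 for cytosolic ribosomal proteins and from 0.171 to 0.822 for translation factors. Over all tumors it was 0.312 with proliferation, 0.291 with skeletal muscle and -0.066 with epithelial markers, and 0.166 with library size. The members' level also moved with gene length: an index of the 1345 shortest minus the 1346 longest of the other protein coding genes (mean z-scores) correlated with the members' score at r = 0.729 (rho = 0.746), at 0.756 without the 2 tumors farthest from the median index, and at 0.544 to 0.870 within the 5 groups. The members' exons together span a median of 2213.5 bases and those of the other protein coding genes 4417 bases. With this index regressed out, the mean correlation between members was 0.189, that between cytosolic ribosomal protein genes 0.312, and that between nuclear respiratory chain genes 0.212. Only the members were left out of the index, so it could hold genes of the other lists. Regressing it out can then lower the correlations within those lists by construction. The members' correlation with the index can also carry theirs with those lists. What the index stands for was not tested.

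Summed over the 75 members, RPKM was lowest in insulin tumors, at 2036 to 2730 with a median of 2485, and highest in IGF1 tumors, at 2215 to 3831 with a median of 3035. Vehicle tumors lay at 2557 to 3592 (median 2835), glargine tumors at 2419 to 3631 (median 2723) and X10 tumors at 2167 to 3374 (median 2497). All 5 ranges overlapped. Means were 2907 ± 356 in vehicle, 2499 ± 200 in insulin, 2782 ± 377 in glargine, 2639 ± 383 in X10 and 3047 ± 510 in IGF1 tumors (SD, n = 10 each). The SD was 123 without tumor insulin_21 in the insulin group, and 244 without tumor glargine_47 in the glargine group. The ratio of the large to the small subunit sum was 1.89 ± 0.11 in vehicle, 1.98 ± 0.09 in insulin, 1.95 ± 0.09 in glargine, 2.02 ± 0.08 in X10 and 2.04 ± 0.13 in IGF1 tumors. Without tumor IGF1_136, where Mrpl32 stood at 310 RPKM, the ratio in IGF1 tumors was 2.00 ± 0.08, below that of X10. The group mean was lowest in insulin for 51 of 75 members, where this was so for 15.5% of all genes, and highest in IGF1 for 36 of 75, where it was so for 21.9% of all genes. The length index had medians of -0.35 in glargine, -0.28 in insulin, -0.27 in X10, 0.005 in vehicle and 0.24 in IGF1 tumors. Its means, -0.34 in insulin, -0.10 in X10, -0.02 in glargine, 0.22 in vehicle and 0.25 in IGF1 tumors, moved with single tumors: the glargine mean was -0.22 without tumor glargine_47, the vehicle mean 0.04 without tumor Untreated_174 and the IGF1 mean 0.04 without tumor IGF1_160, so the order of the groups by this index is not firm. Its part in these sums was not tested.

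**Figure D3:**
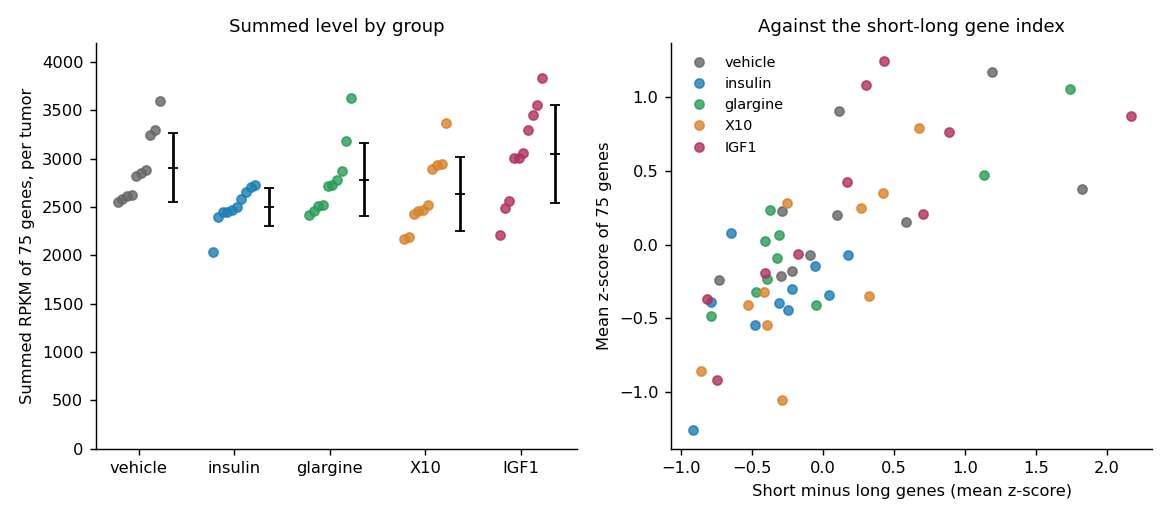
Left, summed RPKM of the 75 genes in each tumor by treatment group, with the mean and SD of 10 tumors beside the points; the insulin tumors lie between 2036 and 2730 and the IGF1 tumors between 2215 and 3831. Right, mean z-score of the 75 genes against the index of short minus long genes, 1 point per tumor in its group colour; the points rise together with r = 0.729.

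Tests between groups were made with limma on log2(RPKM + 0.5) over all 16733 genes and adjusted after Benjamini-Hochberg. For insulin against vehicle no member had an adjusted p under 0.05, and 0% of all genes did. At an unadjusted p under 0.05, 24 members were lower and 0 higher, where 5.17% of all genes were lower and 5.98% higher. In all, 68 of 75 had a negative difference, where 45.5% of all genes did. The median log2 difference was -0.20 over the members and 0.03 over all genes. By symbol, 12 of 29 small and 12 of 46 large subunit members were lower at the unadjusted p. Mrpl19, of the large subunit, ran from 29.1 to 59.3 RPKM in vehicle (median 41.1) and from 23.5 to 40.3 in insulin tumors (median 28.8), overlapping between 29.1 and 40.3. Its log2 difference was -0.46 (SE 0.13, adjusted p = 0.244). Mrps35, of the small subunit, ran from 30.1 to 75.04 RPKM (median 48.8) and from 29.2 to 44.2 (median 33.6), with a difference of -0.47 (SE 0.15, adjusted p = 0.301). Among the 7 members with a positive difference, Mrps31 was at 0.10 and Mrpl24 at 0.11 (adjusted p = 0.802 and 0.806). With the length index as a covariate, an alternative added after the values were seen, 9 members in place of 24 were lower at the unadjusted p and the median difference was -0.10. Of the markers of other cell types, all 8 epithelial markers had a negative difference (median -0.96, 3 of them at the unadjusted p) and all 6 leukocyte markers a positive one (median 0.58, 3 at the unadjusted p), with 0 passing the adjusted p. With muscle, adipocyte and epithelial marker scores as covariates the members' median difference was -0.21, and the part of the leukocyte markers was not tested.

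For glargine against vehicle, 0 members passed the adjusted p, as did 0% of all genes. At the unadjusted p 1 member was higher and 2 lower, with 3.31% of all genes higher and 2.92% lower. The member higher was Mrpl41, a mitochondria-specific protein (log2 0.24, SE 0.11, adjusted p = 0.789), at 24.1 to 36.6 RPKM in glargine and 17.6 to 38.7 in vehicle tumors. Mrpl55 came next (0.26, adjusted p = 0.807). Mrpl19 (-0.37, SE 0.13) and Mrpl1 (-0.24, SE 0.11) were the lower ones, both at an adjusted p of 0.789. All 5 adipocyte markers (median 0.90, 1 at the unadjusted p) and 8 of 9 skeletal muscle markers (median 0.53) had a positive difference, and 6 of 8 epithelial markers (median -0.40, 1 at the unadjusted p) a negative one.

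For X10 against vehicle, 0 members and 0.0657% of all genes passed the adjusted p. At the unadjusted p 14 members were lower and 0 higher, where 8.25% of all genes were lower and 2.75% higher, and the median difference was -0.14 against -0.03 over all genes. The 14 became 7 after quantile normalization or upper quartile scaling, both with a median of -0.08, and 9 without tumor X10_100, tumor X10_116 or tumor Untreated_195. Mrps6 had a log2 difference of -0.79 (SE 0.21, adjusted p = 0.137). Mrpl4 ran from 12.2 to 31.4 RPKM in X10 tumors (median 20.2) and from 16.3 to 34.7 in vehicle tumors (median 28.1), a difference of -0.45 (SE 0.15, adjusted p = 0.267). Mrps10 was at 0.17 (adjusted p = 0.608) and Mrpl41 at 0.13 (adjusted p = 0.669). All 6 leukocyte markers (median 0.24) and 7 of 9 skeletal muscle markers (median 0.31) had a positive difference, 0 of them at the unadjusted p.

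For IGF1 against vehicle, 0 members and 0.00598% of all genes passed. At the unadjusted p 1 member was higher and 2 lower, with 4.49% of all genes higher and 4.34% lower, and 42 of 75 had a positive difference (median 0.04), as had 8935 of 16733 genes (median 0.02). Without tumor IGF1_135 the members' median was -0.005. The smallest p in each direction were those of Mrpl28, at 129 to 293 RPKM in IGF1 tumors (median 184) and 114.6 to 226 in vehicle tumors (median 138), with 0.29 (SE 0.14, adjusted p = 0.551), and Mrpl44, a large subunit protein with a ribonuclease III-like fold, with -0.23 (SE 0.11, adjusted p = 0.532). Mrpl24 (0.26, adjusted p = 0.601) and Mrpl40 (-0.28, adjusted p = 0.558) followed. All 8 epithelial markers had a negative difference (median -1.86, 5 at the unadjusted p), as had all 5 adipocyte markers (median -0.73, 0 at the unadjusted p), and 0 passed the adjusted p. With muscle, adipocyte and epithelial marker scores as covariates the members' median was 0.02.

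The study set the compounds with high affinity for the IGF1 receptor, X10 and IGF1, against vehicle, insulin and glargine. In this contrast 0 members passed the adjusted p, and 0.155% of all genes did. At the unadjusted p 5 members were higher and 1 lower, where 2.97% of all genes were higher and 7.57% lower. Mrps10 was at 0.20 (SE 0.08, adjusted p = 0.290), Mrpl45, which sits at the exit of the nascent chain, at 0.27 (SE 0.11, adjusted p = 0.308) and Mrps18c at 0.19 (SE 0.08, adjusted p = 0.330). Below 0, the smallest p were those of Mrps6, at -0.45 (SE 0.13, adjusted p = 0.129), and Mrps33, at -0.20 (SE 0.12, adjusted p = 0.624). Mrps30, Mrps18a and Mrps36, whose place differs from their symbol, were at 0.05, 0.003 and 0.005. Of the cell type markers, 4 of 6 mesenchymal and fibroblast markers (median -0.32, 3 at the unadjusted p), 7 of 8 epithelial markers (median -0.42) and all 5 adipocyte markers (median -0.49) had a negative difference, and 0 passed the adjusted p. The part of the mesenchymal markers in this contrast was not tested.

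Insulin and its analogues were also compared with each other. For glargine against insulin, 0 members and 0% of all genes passed the adjusted p, while at the unadjusted p 9 members were higher and 0 lower, where 2.1% of all genes were higher and 1.86% lower. The differences were positive for 69 of 75 members, with a median of 0.14, where 48.3% of all genes were higher, with a median of -0.007. All 9 skeletal muscle markers (median 0.49, 0 at the unadjusted p) and all 5 adipocyte markers (median 1.62, 3 at the unadjusted p) also had positive differences, 0 of them passing the adjusted p. With muscle, adipocyte and epithelial marker scores as covariates the members' median was 0.16. Mrpl41 was at 0.30 (SE 0.11) and Mrps34 at 0.34 (SE 0.12), both at an adjusted p of 0.990, and of the 6 below 0 Mrpl9 (-0.18) and Mrpl24 (-0.16) had the smallest p. For X10 against insulin, 0 members and 0.102% of all genes passed. At the unadjusted p 5 members were higher and 1 lower, where 3.02% were higher and 8.29% lower over all genes. Mrps10 was at 0.32 (SE 0.12, 95% interval 0.08 to 0.57, adjusted p = 0.248), Mrpl27 at 0.28 (SE 0.12, adjusted p = 0.324), Mrpl4 at -0.31 (SE 0.15, adjusted p = 0.416) and Mrpl9 at -0.25 (SE 0.13, adjusted p = 0.471). Here 7 of 8 epithelial markers had a positive difference (median 1.16, 1 at the unadjusted p), and all 6 leukocyte (median -0.27) and all 4 endothelial markers (median -0.19) a negative one, with 0 at the adjusted p. The part of the leukocyte and endothelial markers was not tested. The groups share the insulin, vehicle or X10 tumors, so these comparisons are not independent of each other.

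**Figure D4:**
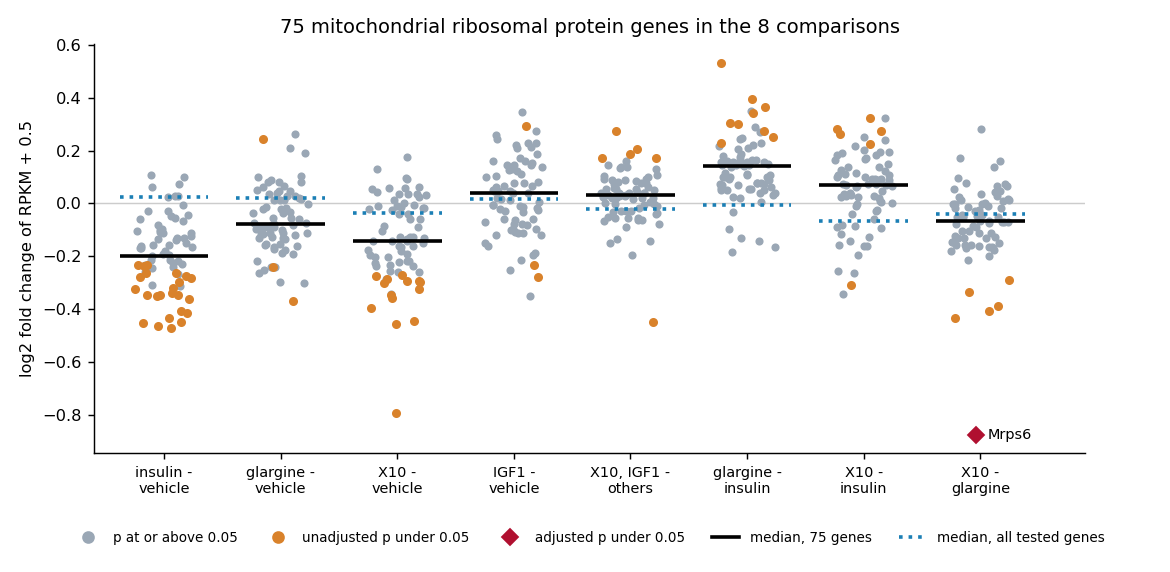
Log2 fold change of RPKM + 0.5 for each of the 75 genes in the 8 comparisons, 1 point per gene. Orange points have an unadjusted p under 0.05 and the red diamond an adjusted p under 0.05, black lines are medians of the 75 genes and dotted lines medians of all tested genes. The black line sits lowest for insulin against vehicle (-0.20) and highest for glargine against insulin (0.14), and the only diamond is Mrps6 in X10 against glargine.

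The 1 member called in any comparison was Mrps6, for X10 against glargine, where 1.78% of all genes (298 of 16733) passed the adjusted p. Mrps6 encodes a small subunit protein with a bacterial homologue and lies at chr16:92058270-92112227 on the plus strand (GRCm38). It stood between 14.1 and 45.9 RPKM in X10 tumors (median 29.4) and between 32.6 and 71.0 in glargine tumors (median 49.3). In vehicle tumors it ran from 24.3 to 78.8 (median 48.2), in insulin tumors from 20.7 to 49.0 (median 37.2) and in IGF1 tumors from 25.2 to 63.5 RPKM (median 36.1). X10 tumors were lowest and glargine and vehicle tumors highest, with overlap between all groups. Mrps6 was lower in X10 than in glargine tumors by a log2 difference of -0.87 (SE 0.21, 95% interval -1.29 to -0.46, adjusted p = 0.0187). At the unadjusted p 6 members were lower and 0 higher in this comparison, where 9.59% of all genes were lower and 2.06% higher. Mrpl4 was at -0.41 (adjusted p = 0.171), and above 0 the smallest p were those of Mrpl45 (0.28) and Mrps18c (0.17), at adjusted p of 0.569 and 0.675. Of the cell type markers, all 5 adipocyte markers (median -0.94, 1 at the unadjusted p), all 6 mesenchymal and fibroblast markers (median -0.20) and 8 of 9 skeletal muscle markers (median -0.23) had a negative difference for X10 against glargine, and 0 passed the adjusted p. With muscle, adipocyte and epithelial marker scores as covariates Mrps6 was at -0.91 (limma adjusted p = 0.0192), and the part of the mesenchymal markers was not tested. The moderated F test for any difference among the 5 groups passed 0 members and 0.102% of all genes. At its unadjusted p it held 13 members, where 13.1% of all genes did, and Mrps6 came first (adjusted p = 0.121).

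The call for Mrps6 depended on which genes were tested beside it. Of the 298 genes called, 263 are annotated as pseudogenes, 262 of them lower in X10 tumors. With the 2055 pseudogenes left out, an alternative added after the values were seen, 0 of 14678 genes were called and the adjusted p of Mrps6 was 0.174, its difference being unchanged at -0.87. Without tumor X10_111, where Mrps6 was lowest (14.1 RPKM), the difference was -0.77 and the adjusted p 0.0619. Mrps6 also shares exon sequence on its own strand with Slc5a3, the myo-inositol transporter, and how reads that fit both genes entered the deposited RPKM is not given in the sources used here. Slc5a3 had a difference of -0.62 in the same comparison (SE 0.39, adjusted p = 0.620), and the 2 genes correlated at 0.449 (rho = 0.355) over the 50 tumors.

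**Figure D5:**
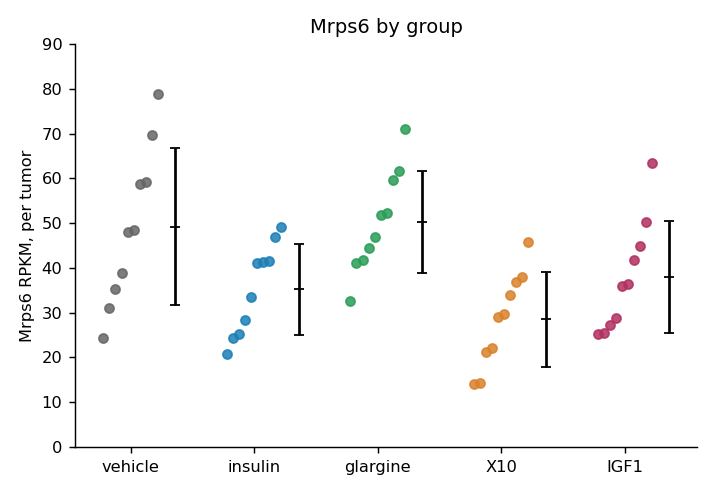
RPKM of Mrps6 in each tumor by treatment group, with the mean and SD of 10 tumors beside the points. The X10 tumors lie between 14.1 and 45.9 RPKM and the glargine tumors between 32.6 and 71.0 RPKM, and the ranges overlap.

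Genes that work with the mitochondrial ribosome gave few calls. Of 7 mitoribosomal proteins with other symbols, 23 assembly and rRNA modification factors, 15 translation factors, 4 factors of mitochondrial DNA transcription and 13 genes of mitochondrial DNA, 0 passed the adjusted p in any comparison, in either direction. In X10 and IGF1 against the other groups Gadd45gip1 was at -0.08 and Ptcd3 at 0.09, Gtpbp10 at 0.14 and Mterfd2 at 0.09, Slirp, which stabilises mitochondrial messages, at 0.19, Gfm2 at -0.09, Tfam, which packs mitochondrial DNA, at 0.15, Polrmt, the mitochondrial RNA polymerase, at -0.11, mt-Nd3 at 0.28 and mt-Nd4l at -0.46, with adjusted p of 0.357 or more. Of 9 regulators, Pprc1, a coactivator of NRF1, was lower in X10 than in vehicle tumors (-0.51, SE 0.11, adjusted p = 0.0473; 123 ± 17.8 against 178 ± 47.6 RPKM, SD, n = 10). This call was lost in 39 of 63 alternatives, among them leaving out the pseudogenes (adjusted p = 0.0873), quantile normalization (0.227) and 32 of the 50 fits without 1 tumor. In the contrast of X10 and IGF1 with the others Pprc1 was at -0.24 (adjusted p = 0.136) and Ppargc1a at -0.39 (adjusted p = 0.427).

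For insulin against vehicle the largest related lists went the same way as the members. Here 73 of 76 cytosolic ribosomal protein genes and 67 of 71 nuclear respiratory chain genes were lower, where 45.5% of all genes were. Their medians were -0.18 and -0.19, and 0 of them passed the adjusted p. Assembly factors had a median of -0.16, with 20 of 23 lower, and genes of mitochondrial DNA one of 0.01, with 6 of 13 lower. For X10 against vehicle, 12 of 13 genes of mitochondrial DNA had a positive difference (median 0.23), while 59 of 75 members had a negative one, as had 9311 of 16733 genes. Beside Pprc1, only 2 genes of these lists were called by limma in any of the 8 comparisons. Rpl30, of the cytosolic large subunit, was higher in X10 and IGF1 tumors than in the others (0.42, SE 0.08, adjusted p = 0.0129) and in X10 than in insulin tumors (0.66, SE 0.12, adjusted p = 0.00918). Its means were 309 ± 63.7 RPKM in vehicle, 244 ± 33.7 in insulin, 303 ± 68.96 in glargine, 389 ± 62.1 in X10 and 367 ± 70.2 in IGF1 tumors (SD, n = 10). Atp5c1, the gamma subunit of ATP synthase, was named after its value was seen and was higher in X10 than in insulin tumors (0.45, SE 0.10, adjusted p = 0.0419), at 188 ± 33.6 against 135.99 ± 9.499 RPKM. With the pseudogenes left out the adjusted p of Atp5c1 was 0.106 and those of Rpl30 were 0.0438 and 0.0262. Over 63 alternatives the call for Atp5c1 was lost in 22, of which 17 left out 1 tumor, and those for Rpl30 in 0. Cox6c, of respiratory complex IV, stood at 0.44 in the contrast of X10 and IGF1 with the others (SE 0.10, adjusted p = 0.0503). In the same contrast Atp5g2, a gene for subunit c of ATP synthase, was at 0.24 (SE 0.07, adjusted p = 0.114) and Rpl23, of the cytosolic large subunit, at 0.29 (SE 0.10, adjusted p = 0.191).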

How the data were processed

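RNA of 50 mouse mammary gland tumors, 10 per group, was measured by poly-A RNA-seq on the Ion Proton. The authors aligned reads with TopHat2 2.0.10 and Bowtie2 to GRCm38, counted them per Ensembl gene with HTSeq 0.6.1 in its default mode, tested with DESeq2 1.2.10 and deposited RPKM values per gene and tumor, a table made with DEXSeq. The gene length used for RPKM is not given in the sources used here. Groups came from the sample titles, in which 1 tumor is spelled IFG1 and was taken as IGF1, and the doses are not given in the sources used here.

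From the RPKM values, log2(RPKM + 0.5) was computed for the 16733 genes with a mean of at least 0.5 RPKM and fitted over all 5 groups with limma 3.58.1 (R 4.3.3, intensity trend), with 8 contrasts, a moderated F test and Benjamini-Hochberg adjustment over all genes. These fold changes understate those of genes with low values. Reads and library sizes were recovered from the value steps for 89.2% of the genes. In the library with the lowest share, 96.0% of the low values came out whole. Tables were handled in Python 3.11.15. The fit was tested on simulated data. The alternatives were other pseudocounts, level limits, scalings, fits and covariates, and voom on the recovered reads. Leaving out each tumor, leaving out pseudogenes and the length index were added after the data were seen.

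Members, lists and tests were chosen with earlier results of these data known. Named are the members with an adjusted p under 0.05, in each comparison the 2 with the smallest p in each direction, the 3 highest and 3 lowest by level, by SD and by correlation with the others, members whose place differs from their symbol, the symbols at the level limit, and of each related list the 2 with the smallest p in X10 and IGF1 against the others.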

Additional observations from a re-analysis of the deposited data

Results flagged for a closer look

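The summed level, the ratio of subunit sums, the length index and the named members, 39 measures in all, were each looked at in the 10 tumors of each of 5 groups. Of these sets (39 times 5), 18 had a highest or lowest tumor whose gap to the next, as a share of the range, exceeded Dixon's 95% limit. Chance gives about 1 in 20 sets, and since some members were named for their high SD, the 18 are not to be read against that. Tumors are named by their labels. The member sum was 2036 RPKM in tumor insulin_21, and the next insulin tumor stood at 2399.

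The highest tumors that stood apart were tumor IGF1_136 for Mrpl32 (310 RPKM, next 37.6), tumor glargine_62 for Mrps33 (83.5, next 22.4) and tumor Untreated_195 for Mrps25 (71.2, next 42.0). Smaller gaps were those of Mrpl1 in tumor glargine_78 (6.63, next 5.52), Mrps9 in tumor glargine_47 (26.5, next 21.6), Mrps10 in tumor IGF1_135 (35.9, next 27.6) and Mrps2 in tumor X10_118 (18.2, next 14.4). tumor X10_95 was highest for Mrpl35 (6.38, next 4.89) and Mrps36 (25.1, next 17.2). tumor insulin_37 was highest for Mrpl9 (44.7, next 30.5) and Mrps31 (13.3, next 10.2), and tumor insulin_8 for Mrpl44 (14.2, next 11.3). In the vehicle group these were tumor Untreated_197 for Mrps26 (17.0, next 12.3) and tumor Untreated_174 for Mrps34 (55.3, next 37.9).

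The lowest tumors that stood apart were tumor X10_100 for Mrpl18 (48.9 RPKM, next 64.4), tumor IGF1_160 for Mrps31 (4.95, next 7.76) and tumor Untreated_186 for Mrps5 (22.3, next 33.2).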

How the results depend on the processing

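Over 63 distinct alternatives, 50 of which left out 1 tumor each (the tumor titled IFG1 among them), 22 results gave 786 values. Of these, 772 kept their direction and side of the threshold or moved little, 14 did not, and 0 reversed among called values. A median difference counted as moving little within 0.167, the pooled SD within groups of the members' mean log2 level. Only the median for insulin against vehicle (-0.20) exceeds that in size. All medians counted as kept, even where the sign changed (IGF1 against vehicle). Counts could move too, as 18 to 26 lower members in place of 24 counted as kept. The 772 are thus no measure of how firm the medians are. The members lower at an unadjusted p numbered 24 for insulin against vehicle, and 9 with the length index as a covariate (18 to 26 with 1 tumor left out). For X10 against vehicle they numbered 14, 7 after quantile normalization or upper quartile scaling, 9 with library size or the length index as a covariate, and 9 to 19 with 1 tumor left out (9 without tumor X10_100, tumor X10_116 or tumor Untreated_195). For X10 against glargine the 1 member with an adjusted p under 0.05 became 0 without pseudogenes, and 0 to 2 with 1 tumor left out (0 without tumor X10_111, 2 without tumor X10_95). Mrps6 was then at -0.87 (limma adjusted p = 0.174) and -0.77 (adjusted p = 0.0619), and its adjusted p ran from 0.0124 to 0.174 over the alternatives. The mean correlation of 0.316 became 0.189 with the length index regressed out. The median difference for IGF1 against vehicle (0.04) was -0.005 without tumor IGF1_135. The causes were not tested. No paired analysis was possible because the groups share no replicate numbers. Of the 73 members with recovered reads the lowest mean depth was 372 reads per tumor.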
